A study of Arabidopsis thaliana with 2 samples.

Results

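The 7 listed splicing events in the 4 protein kinase genes ckl3, SNRK2.10, AT3G58640 and AT4G11900 are described here, out of 343 events in 281 genes of Arabidopsis thaliana. They are all the rows whose gene identifier belongs to one of these genes in 5 event tables that compare the lefko mutant with wild type. The genes were picked because of how they appear in those tables: the first 3 have an intron that is retained less in the mutant, and the fourth, a receptor kinase gene, is listed in several classes of event. The differences between the genotypes below are therefore what chose the genes, and they are given as descriptions with no test of their own. The FDR (p-value adjusted for multiple tests) quoted for an event is the value in the authors' deposited table.

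Total RNA came from cotyledons, the seed leaves, of the mutant (written lefko1 in the extraction protocol and lefko2 in the sample title) and of wild-type plants, both Col-0, grown on Murashige and Skoog medium with sucrose in long days. The sources used here give no plant age, name neither the gene mutated in lefko nor its allele, and the source label of both samples names seeds. There is 1 sample per genotype, and every event has 3 sets of read counts for each genotype. Whether these sets are separate plants, separate libraries or repeat runs is not stated, so each SD measures only the spread between these sets. Each SE of a difference is computed from those SDs as if the sets were independent, and it has the same limit. Reads summed over all listed events ran from 166819 to 178604 per mutant set and from 168946 to 187225 per wild-type set. The tables hold no expression levels, so the labelled tissue was not checked against marker genes.

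Protein kinases transfer phosphate from ATP to other proteins, and plants carry large families of them that act in hormone, stress and surface-receptor signalling. Introns lie in coding sequence and also in the 5' untranslated region (5' UTR), the leader that the ribosome scans before the main start codon. An intron kept in the leader leaves the sequence from the main start codon onward unchanged. It lengthens the leader and can bring in upstream start codons (ATG), or stop codons that end reading frames opened further upstream. An intron kept in coding sequence can instead bring a stop codon into the protein's own frame.

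The splice sites of the retained introns are shown first, because they mark which stretch is kept or removed, and because start and stop codons lie close to them. All are reference sequence (TAIR10.1), 30 bases each, 5' to 3' on the strand of the gene. Capitals mark the GT that begins or the AG that ends the intron, and, in the 5' windows, any ATG that opens an upstream frame. The 5' window of ckl3 starts at an ATG in the exon and holds another that overlaps the GT, made of the last 2 exon bases and the first intron base, and that of AT3G58640 holds an ATG inside the intron.
ckl3 5' splice site, chr4:14251208-14251237, plus strand: ATGtcactaccaccgATGTcagtcaaacaa
ckl3 3' splice site, chr4:14251307-14251336, plus strand: ctatccttgcgcttgatccAGattcggttc
SNRK2.10 5' splice site, chr1:22442087-22442116, minus strand: atcatcattGTaattcgtaatcatatcttc
SNRK2.10 3' splice site, chr1:22441926-22441955, minus strand: tgggtttgtgactttgtgtAGtggaaatta
AT3G58640 5' splice site, chr3:21692771-21692800, minus strand: gggctactgGTaaATGaagtttgattctca
AT3G58640 3' splice site, chr3:21692685-21692714, minus strand: taggggctgatataactatAGacattaagg

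The casein kinase 1-like gene ckl3 (AT4G28880) encodes a serine/threonine kinase of 415 residues. Its retained intron is the first of 14, 103 nt long, at 14251225 to 14251327 on chromosome 4, wholly in the 5' UTR, and it ends 23 nt before the main start codon. An annotated transcript also keeps it. The wild-type sets held 109, 106 and 81 inclusion reads, counted for the form that keeps the intron, against 38, 21 and 30 skipping reads, counted for the spliced form. How a read was assigned to either is not stated. In the mutant the sets held 72, 84 and 71 inclusion and 71, 47 and 62 skipping reads. The inclusion share, inclusion reads over inclusion plus skipping reads, was 76.9% ± 5.75 (SD, 3 sets) in wild type against 56.0% ± 7.24 in the mutant. The difference was -20.9 points (SE 5.34), and the highest mutant set (64.1%) lay below the lowest wild-type set (73.0%). The authors' deposited table lists the event with an FDR of 0.0163.

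SNRK2.10 (AT1G60940) encodes a kinase of 361 residues in the SnRK2 family, which is activated by salt and osmotic stress. Its retained intron is the first of 9, 173 nt long, at 22441935 to 22442107 on chromosome 1, in the 5' UTR and 38 nt before the main start codon. Of the 4 genes this one had the most reads. Inclusion reads were 483, 337 and 401 in the wild-type sets and 303, 302 and 275 in the mutant sets, and skipping reads were 72, 59 and 59 against 137, 119 and 105. The share went from 86.4% ± 1.16 to 71.0% ± 1.87, a difference of -15.4 points (SE 1.27), with the tightest sets of the 3 leader introns. The authors' deposited table gives it an FDR of 6.8e-07. All 3 mutant sets (68.9% to 72.4%) lay below all 3 wild-type sets (85.1% to 87.2%).

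AT3G58640 encodes a protein of 809 residues annotated as a mitogen-activated protein kinase kinase kinase-like protein, a class known for the top tier of kinase cascades. Its retained intron is the second of 17, 98 nt long, at 21692694 to 21692791 on chromosome 3. It follows a leader exon of only 30 nt, which itself follows a first intron of 728 nt, and it ends 18 nt before the main start codon. Wild type had 90, 75 and 96 inclusion and 132, 73 and 121 skipping reads, and the mutant 53, 65 and 69 inclusion and 193, 157 and 161 skipping reads. The share went from 45.2% ± 5.13 to 26.9% ± 4.69, by -18.2 points (SE 4.01), and the 3 mutant sets (21.5% to 30%) lay below the 3 wild-type sets (40.5% to 50.7%). Its FDR in the authors' deposited table, 0.0267, was the largest among the 7 events, while the largest listed for any event was 0.0491.

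These 3 falls go against the lists as a whole, in which 22.2% of the 343 events had lower inclusion in the mutant. That share pools all event classes, and inclusion means a kept intron only in the retention events. Retention was lower in the mutant in 16.8% of the 214 listed retention events, in 31.2% of the 48 in 5' UTRs and in 4.96% of the 141 in coding sequence. Since the 3 introns were picked for their falls, nothing is read from their own count. In each of the 7 kinase events all 3 sets of one genotype lay above all 3 of the other, as they did in 91.8% of the 343 listed events. Every listed event had been selected by the authors' test of these same counts.

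**Figure D1:**
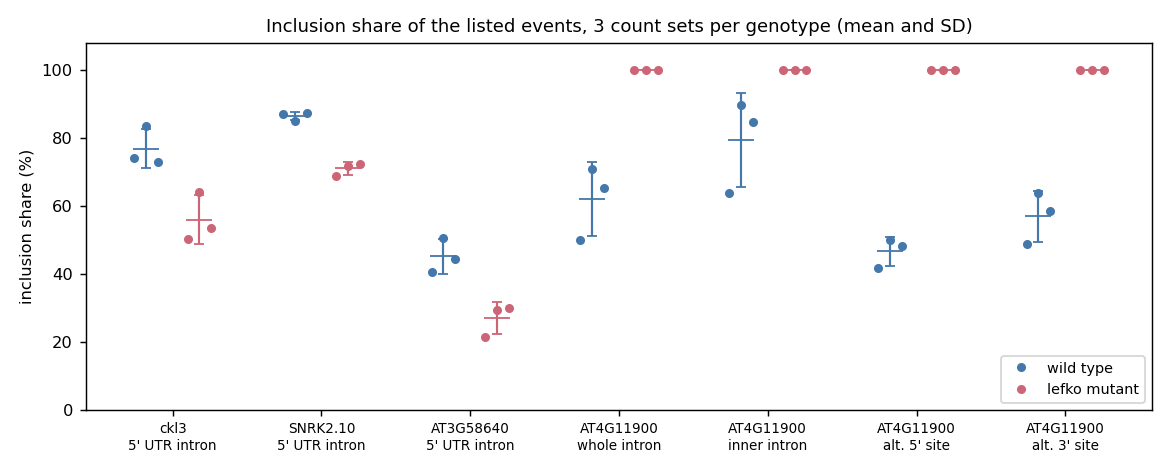
Inclusion share (%) of the 7 listed events of the 4 kinase genes, with each of the 3 count sets per genotype as a point and the mean ± SD as a bar. The 3 leader introns are lower in the mutant, and each AT4G11900 event is at 100% in the mutant, on 6 to 18 reads.

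**Figure D2:**
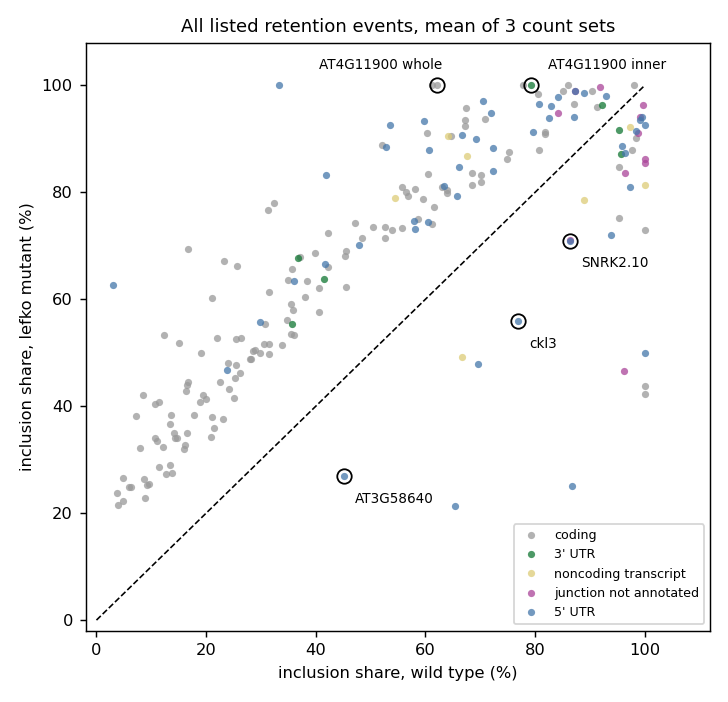
Mean inclusion share in wild type (x axis, %) and in the mutant (y axis, %) of all 214 listed retention events, coloured by intron position, with the kinase introns ringed. The dashed line marks equal shares, and the leader introns of ckl3, SNRK2.10 and AT3G58640 lie below it, where 15 of 48 listed 5' UTR introns and 7 of 141 coding introns lie.

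Inclusion and skipping reads were then compared separately. Each was scaled to 100000 reads over all listed events of the same set, since the sources used here give no library totals. In ckl3 skipping reads went from 16.7 ± 4.25 to 34.6 ± 7.30 (SD, 3 sets), 2.07 times as many in the mutant, and inclusion reads from 55.6 ± 6.72 to 43.5 ± 3.22 (0.782 times). SNRK2.10 had 1.93 times the skipping reads (35.7 ± 2.46 to 69.0 ± 7.61) and 0.735 times the inclusion reads. For AT3G58640 these ratios were 1.60 and 0.729. In all 3 genes the scaled sets of the genotypes did not overlap for either kind of read. How often this holds over all listed events was not counted, so nothing is read from it. Without scaling, only the inclusion reads of ckl3 overlapped, with 81 reads in the lowest wild-type and 84 in the highest mutant set.

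The sum of both kinds of read over each leader intron moved less. It was 1.08 times the wild-type value in ckl3, 0.896 times in SNRK2.10 and 1.21 times in AT3G58640, and the genotypes' sets overlapped in each. Scaled to the retention events alone, the sum was 0.963, 0.800 and 1.08 times, and then the sets of SNRK2.10 no longer overlapped. The lower share in the mutant thus came with more skipping reads as well as fewer inclusion reads.

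**Figure D3:**
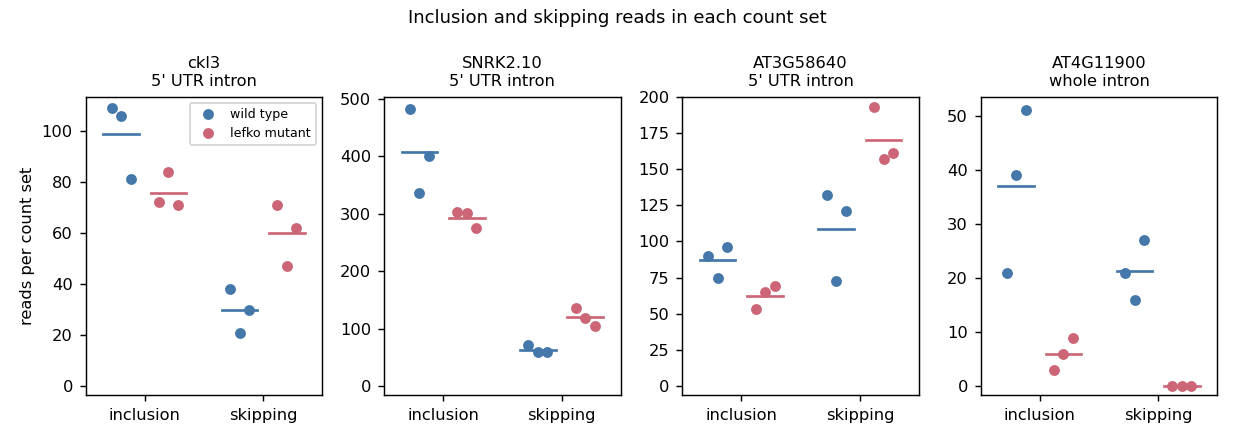
Inclusion and skipping reads (y axis, reads per count set, unscaled) of the 3 leader introns and of the whole intron of AT4G11900, with each count set as a point and the mean as a line. In the leader introns inclusion is lower and skipping higher in the mutant, while both are lower in AT4G11900, with 0 skipping reads in every mutant set.

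Start codons within the retained leader introns were read from the reference, which the choice of genes did not use. Wholly inside the intron, ckl3 has 1 ATG and AT3G58640 has 2. That of SNRK2.10, the longest, holds none. Retention in ckl3 also forms an ATG across the 5' boundary of the intron, which 1 of the 45 other listed 5' UTR introns does at either boundary. The ATG windows not yet shown are given next, 30 bases each, with the ATG in capitals.
ckl3 ATG in the intron, chr4:14251244-14251273, plus strand: taatatATGtttttaagttcctctaatttc
AT3G58640 second ATG in the intron, chr3:21692701-21692730, minus strand: ccgtttATGggataagtaggggctgatata

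The ATG inside the ckl3 intron begins at base 26 of the intron, and its frame runs for 29 codons, out of the intron and to a stop 11 nt before the main start codon, in another frame. In AT3G58640 the ATG at base 5, next to the 5' splice site, opens 10 codons and that at base 68 opens 2 codons, and both frames stop inside the intron. None of these frames reaches the kinase coding sequence.

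The exons of the leaders also hold start codons, all upstream of the intron, and for some of them retention changes where the frame ends. The second exonic ATG of ckl3, at the start of its 5' splice site window above, opens a frame of 50 codons in the spliced leader, which runs past the main start codon and ends 113 nt into the coding sequence, out of frame with it. With the intron retained the same ATG opens 11 codons and stops inside the intron, 107 nt before the main start codon. The ATG across the boundary lies in this same frame and opens 6 codons to the same stop. AT3G58640 has a pair of such exonic start codons. Their frames span 28 and 20 codons in the spliced leader and end together 20 nt into the coding sequence, and with the intron retained they span 18 and 10 codons and end inside it. In SNRK2.10 the only exonic ATG opens 16 codons when spliced and 14 when retained, and both end before the main start codon. The remaining exonic start codons, 1 each in ckl3 and AT3G58640, open frames of 3 and 12 codons that stop before the intron in either form. In ckl3 and AT3G58640, then, the retained form has no upstream frame that overlaps the coding sequence and the spliced form has 1 and 2 of them. This describes reference sequence, and translation was not measured.

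**Figure D4:**
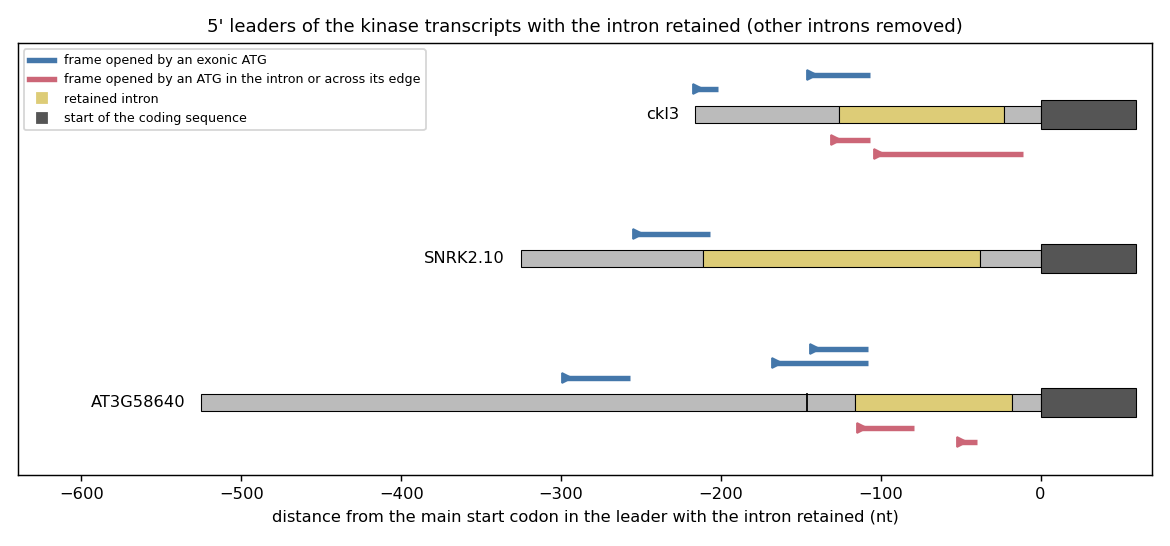
Leaders of ckl3, SNRK2.10 and AT3G58640 with the intron retained, by distance from the main start codon (x axis, nt), where grey boxes are exons, the yellow box is the retained intron and a black line in AT3G58640 marks another exon junction. Lines with arrowheads are frames from an ATG to its stop, blue for exonic and red for start codons in the intron or across its edge, and none reaches the coding sequence in this form.

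Among the 45 other listed 5' UTR introns, 39 (86.7%) hold an ATG, with a median of 3 per intron and up to 28. The 3 kinase introns are 98 to 173 nt long, against a median of 248 nt in these others and of 168.5 nt in the 12 of them with lower retention. Counting only ATG wholly inside, AT3G58640 has 2.04 per 100 nt, ckl3 0.971 and SNRK2.10 none, against 1.59 over the others. An intron with no ATG was not peculiar to SNRK2.10, since 6 of the other 45 have none, and 2 of these are at least as long as its 173 nt. Of the ATG in the other introns, 191 of 210 open frames that end before the main start codon. Of the 12 other 5' UTR introns with lower retention 9 hold an ATG, and of the 33 with higher retention 30 do.

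Splice sites were scored against 131240 annotated introns of nuclear protein-coding genes, by how well the bases around each site match the average site. The 5' site of ckl3 was at percentile 13.1 and that of SNRK2.10 at 31.9, while that of AT3G58640 was at 78.6. Their 3' sites were at percentiles 19.5, 34.4 and 17.4. For comparison, the median over all 48 listed 5' UTR introns was percentile 34.1 at the 5' site and 40.6 at the 3' site, and over the 141 coding introns 49.5 and 49.5. Over the 15 listed 5' UTR introns with lower retention, these 3 included, the medians were 33.5 at the 5' site and 24.0 at the 3' site. The 5' sites of ckl3 and SNRK2.10 thus lay below every one of these medians and that of AT3G58640 above them, while the 3' site of SNRK2.10 lay above the median of the introns with lower retention. GC content was 31.1%, 35.8% and 34.7%, at percentiles 33.9, 78.9 and 69.3 of annotated introns.

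AT4G11900 encodes an S-locus lectin receptor kinase, a family of surface receptors with an extracellular lectin part and an intracellular kinase part. Its 4 events all concern 1 intron of 279 nt at 7150781 to 7151059 on chromosome 4, and all were higher in the mutant, as were 77.8% of the 343 listed events. Inside this intron some annotated transcripts use a further 3' site and a further 5' site, which bound an inner exon of 56 nt (7150887 to 7150942) and leave an inner intron of 106 nt (7150781 to 7150886). These sites are shown because the listed events differ only in which of them is used. Capitals mark GT or AG, and in the first line also the stop codon TAA that overlaps the GT.
AT4G11900 5' splice site of the whole intron, chr4:7151039-7151068, minus strand: cgggacattGTAAgtgtacatctcgtatag
AT4G11900 upstream 3' splice site, chr4:7150934-7150963, minus strand: tactttttttttcattcctAGtgtctttgc
AT4G11900 downstream 5' splice site, chr4:7150866-7150895, minus strand: tgtgctgagGTaagtacataatttttacat
AT4G11900 3' splice site of the whole intron, chr4:7150772-7150801, minus strand: ttcataagcggttaatttcAGcggctatat

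With the whole intron spliced the annotated protein has 849 residues. When the intron is retained, the frame meets the TAA that starts at base 2 of the intron, and the protein ends after 703 residues, which is 146 residues (17.2%) shorter at its C-terminal end. The annotated transcript that keeps the whole intron has this length. The inner intron lies in the 3' UTR of the 3 annotated transcripts that splice it, 1 of which ends at this TAA, while the other 2 use the upstream 3' site and end in the inner exon. Only 1 of the 4 genes therefore has a listed intron in coding sequence. Its 5' site was at percentile 53.2, the downstream 5' site at percentile 99.0 and the 3' site that both introns share at percentile 14.8.

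In wild type the whole intron had 21, 39 and 51 inclusion reads and 21, 16 and 27 skipping reads. The mutant had 3, 6 and 9 inclusion and 0, 0 and 0 skipping reads. The share, 62.1% ± 10.8 in wild type, was 100% in the mutant, where 0 of 18 reads allow a skipping share of up to 16.7%. The wild-type sets had skipping shares of 29.1% to 50%, all above that limit. This event has an FDR of 2.95e-06 in the authors' deposited table. For the inner intron the wild-type sets had 14, 26 and 33 inclusion and 8, 3 and 6 skipping reads (79.3% ± 13.8), and the mutant sets 2, 4 and 6 inclusion reads and no skipping read. Its 12 mutant reads allow a skipping share of up to 25.0%, and 2 of the 3 wild-type sets, at 10.3% and 15.4%, lie under that limit. A difference in the inner intron was therefore not detectable at this depth in these sets, although the authors' deposited table lists it with an FDR of 0.00057. The difference was 20.7 points, and 12.9 without the first wild-type set.

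In the alternative 5' splice site event the wild-type sets had 15, 16 and 25 reads for the longer exon (46.6% ± 4.36), and the mutant sets 1, 2 and 3. In the alternative 3' splice site event they had 20, 28 and 38 (57.0% ± 7.54) and 1, 3 and 8. Both events have the same skipping counts as the whole intron, 21, 16 and 27 in wild type and none in the mutant, so they are not separate from the retention event. The mutant's 6 and 12 reads allow skipping shares of up to 50% and 25.0%. At the alternative 5' site the wild-type sets had skipping shares of 50% to 58.3%, so their lowest is at the limit. At the alternative 3' site they ran from 36.4% to 51.2%, above the limit of 25.0%. The authors' deposited table gives these events FDRs of 8.62e-05 and 1.63e-05. A read inside the retained stretch may count in several of these events. Their inclusion reads therefore do not separate retention of the whole intron from use of an inner site. Splicing from the downstream 5' site is counted by the skipping reads of the inner intron, 17 over the wild-type sets and 0 over the mutant sets, within the depth limit given above. No listed event gives such a count for the upstream 3' site.

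Unlike the leader introns, AT4G11900 had fewer reads of both kinds in the mutant. Scaled to the listed events, inclusion reads of the whole intron went from 21.2 ± 9.53 to 3.48 ± 1.85 per 100000, 6.09 times lower, and the sets did not overlap. Skipping reads were at least 21.0-fold lower, 64 reads in wild type against the limit of 3 reads that a count of 0 over the mutant sets allows. Both kinds together were 9.57 times lower. In bulk tissue, fewer cells that use a gene and less of its RNA per cell cannot be told apart. How far the lower read number moves with the share was not tested.

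**Figure D5:**
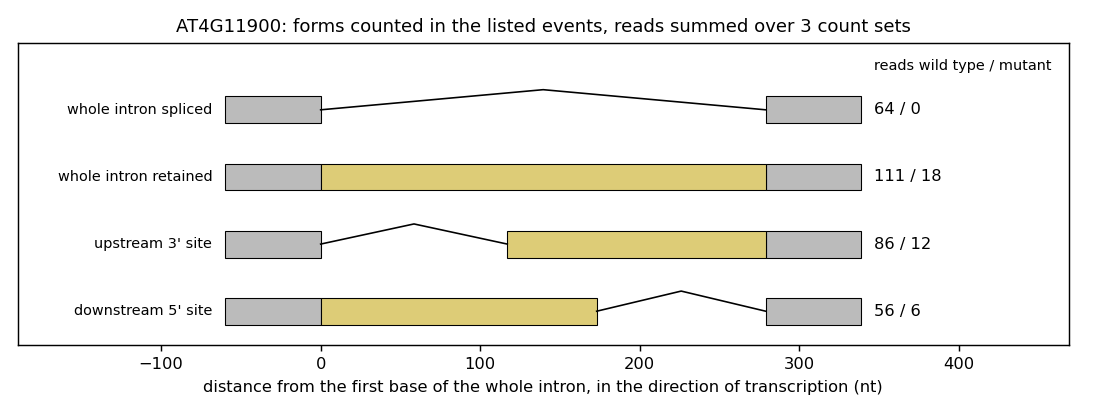
The 4 forms of the AT4G11900 intron that the listed events count, by distance from the first base of the intron (x axis, nt), with exons in grey (drawn in part), retained stretches in yellow and junctions as lines. Numbers are reads summed over 3 sets, such as 64 in wild type and 0 in the mutant for the spliced form, and the retained forms may share reads. Inclusion reads beside a form that uses an inner site may also come from the whole retained intron. They are therefore not a count of that form. Splicing from the downstream 5' site is counted only by skipping reads of the inner intron, 17 in wild type against 0 in the mutant.

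The other listed genes described as kinases give the setting. There were 23 of them. Of their 26 events, all classes pooled, 21 were higher and 5 lower in the mutant. Inclusion means a kept intron only in the retention events. The word kinase also takes in APK3, whose substrate is a sulfur compound and not a protein, and CKB3, a regulatory subunit. Retention was higher in 17 of their 18 retention events, against 83.2% of all listed retention events. It was higher in 12 of 13 coding introns and in all 4 introns in 5' UTRs. Over all listed retention events it was higher in 134 of 141 coding and in 33 of 48 5' UTR introns. The coding count is close to that of the lists, and 4 leader introns are too few to set against theirs. The remaining one of the 18, at an unannotated junction of AT4G32250 that overlaps its leader intron, was also higher. Over all 4 leader introns of these other kinase genes the change was thus opposite to that in ckl3, SNRK2.10 and AT3G58640, which were chosen for falling. The leader intron of AT2G30740, a protein kinase superfamily gene, went from 60.6% ± 7.88 to 87.9% ± 3.47, and that of AT4G32250, of the same superfamily, from 72.0% ± 6.54 to 94.8% ± 1.18. FC1 (AFC1), a LAMMER-type kinase of the kind known to phosphorylate splicing factors, went from 63.4% ± 6.96 to 81.2% ± 1.74. AT3G09830, a further member of the superfamily, went from 60.4% ± 1.99 to 74.5% ± 4.14. The leader introns of AT2G30740 and FC1 hold no ATG, like that of SNRK2.10, and those of AT4G32250 and AT3G09830 hold 7 and 6.

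Among the coding introns of other kinase genes with at least 20 reads in each set, the largest rises were in AT1G51890, a leucine-rich repeat kinase gene (11.4% ± 7.49 to 40.8% ± 6.53), AT1G76360 (60.4% ± 8.61 to 83.4% ± 3.74) and CPK28, a calcium-dependent kinase gene. CPK28 went from 45.3% ± 0.620 to 68.1% ± 1.74, with at least 1815 reads in each set. The only fall was in AT1G61440, an S-locus lectin kinase gene like AT4G11900, which went from 100% in each wild-type set to 43.8% ± 29.5. At least 1 of its sets held only 2 reads, and it is named here after its values were seen. With at least 20 reads in each set, all 16 remaining retention events of other kinase genes were higher. Under that filter the lists as a whole held 113 higher and 1 lower coding introns, and 21 higher and 8 lower 5' UTR introns. A set made up mostly of coding introns is therefore close to the lists in this count.

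By family, ckl3 was the only one of 13 casein kinase 1-like genes in the lists, and SNRK2.10 the only one of 10 SnRK2 genes. The lists hold only events past the authors' threshold, so they cannot show whether the other family members kept their splicing or had too few reads.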

How the data were processed

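For 1 lefko mutant and 1 wild-type sample, the submitters' processing notes name HISAT2 2.0.4 and TAIR10. No source used here names the event caller or states how reads were counted. The authors deposited 5 tables with raw inclusion and skipping read counts, 3 sets per genotype, and a p-value and adjusted p-value (FDR) per event, per the file headers. All 343 events have an FDR under 0.05. Sequence names matched the reference (RefSeq, TAIR10.1), and 1 was added to each start.

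Shares were averaged over the 3 sets (mean ± SD), and no test was run on them, since the listing chose the genes. Raw shares depend on intron length and the unknown counting rule, so they are compared only within an event. A count of 0 allows 3 reads, which covers counting error only, as PCR copies are not independent. Position was taken from any annotated transcript that splices the junction, coding before UTR. At 5' sites the score sums log2 odds over 3 bases of exon and 6 of intron, and at 3' sites over 15 of intron and 1 of exon. The code was checked on made-up data with known answers.

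The genes and lists were chosen with earlier results of these data known. Other kinase genes have the word kinase, and not phosphatase, in their description. Of their retention events the text names the 4 largest rises and falls with at least 20 reads in each set, and every 5' UTR intron. Alternatives were summed reads, inclusion reads divided by 2, log2 odds with 0.5 added, leaving out each set, an FDR of at most 0.01, at least 20 reads, a change of at least 10 points, distinct genes, the first transcript, other rules for ATG and other scalings. Python 3.11.15, NumPy 2.4.6, SciPy 1.17.1 and matplotlib 3.10.9 were used.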

Additional observations from a re-analysis of the deposited data

How the results depend on the processing

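No paired analysis was possible because the labels give 1 sample per genotype and no number that joins count sets across genotypes. No direction changed in the 56 alternatives for the 7 inclusion differences in points or in the 7 on a log2 odds scale. For the 56 this was fixed in advance, because the sets of the genotypes did not overlap in any of the 7 events. Of these 56, 51 moved by less than the SD between sets. Every mutant set of AT4G11900 is at 100%, so leaving out one of them only repeats the main value. Leaving out each count set in turn gave -25.0 to -17.6 points for ckl3, -16.1 to -14.4 for SNRK2.10, -20.5 to -15.4 for AT3G58640 and 31.9 to 42.3 for the whole AT4G11900 intron. The other 5 divided inclusion reads by 2, which gave -21.1 points for SNRK2.10 and, for AT4G11900, 54.4 for the whole intron, 32.9 for the inner intron, 69.6 for the alternative 5' site and 59.9 for the alternative 3' site. With an FDR of at most 0.01 only 1 of the 3 falls stayed listed, that of SNRK2.10. With at least 20 reads in each set 0 of the 4 AT4G11900 events were left, and they count as 1 gene. Lower events in 5' UTRs numbered 15, and 8 with an FDR of at most 0.01, 8 with at least 20 reads and 9 with at least 10 points. Higher events in 5' UTRs went from 33 to 21, and lower events in coding sequence from 7 to 1, with at least 20 reads. AT3G58640 has 1 intron ATG with a frame of at least 10 codons. All 20 alternative scalings of read ratios kept their direction. The depth of 6 to 18 mutant reads limits every AT4G11900 event.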
